A study of Danio rerio with 28 samples.

Results

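The AP-1 immediate early genes described here are the Jun genes jun, junba and junbb, the Fos genes fosab, fosl1a and fosl2, the related factor gene atf3, and egr1. They were taken by gene name from a table of raw read counts, in which each of the 8 names matched 1 of 38318 genes, and all 8 had enough counts to be tested. Polyadenylated RNA was sequenced from whole zebrafish of the wild-type AB strain at 5 days post fertilization (dpf), after exposure that began at 1 dpf. The 28 libraries form 7 groups of 4: a control, 3 groups given the toxic metal cadmium (Cd; 2.4, 12 or 24 ug/L) and 3 given PCB126 (0.08, 0.4 or 0.8 nM), a chlorinated biphenyl that activates the aryl hydrocarbon receptor. All groups share the strain, the E3 medium and incubation at 28.5 °C, and none carries a transgene or a mutation according to the labels. The labels name no vehicle for PCB126 and 1 control group for both chemicals. The control columns of the deposited table carry the Cd prefix, and whether the controls were raised beside the PCB126 groups is not stated, so PCB126 and a difference between series cannot be told apart. Whether replicate libraries stem from different clutches is not stated either, so p-values reflect library-to-library spread, which may be technical.

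Immediate early genes are transcribed within minutes of a stimulus from factors already present in the cell, usually downstream of MAP kinases that act on serum response factor and CREB. Jun and Fos proteins pair through leucine zippers to form AP-1, which binds DNA as a dimer, while Egr1 is a zinc finger protein induced by many of the same stimuli. In larval fish they are switched on by wounding, neuronal activity, handling and chemical stress, and their mRNAs are short-lived, so a whole-larva level at a single time shows only what was present at collection.

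Libraries held 11893345 to 20770004 counts. A pair of libraries, control replicate 4 and replicate 3 of Cd 2.4 ug/L, diverged from the other 26: their scaling factors (TMM, which corrects for a few genes taking a large share of the reads) were 0.646 and 0.687 against 0.993 to 1.08 in the other libraries, and ribosomal protein genes took 10.8% and 11.1% of their counts against 5.09% to 5.93%. Many comparisons that involve this pair are given with and without it. The rest are given with it only, as are the marker values below. Markers of neurons, skeletal muscle, epidermis, myeloid cells and liver were detected in every group, as whole larvae would have. However, the myeloid gene coro1a was at 0 in all libraries, and lyz, cldni and a row of mylpfa were below the filter on low counts. The 8 muscle symbols matched 9 rows, of which 8 were tested, and which symbol is doubled was not examined. The summed level of the 6 tested myeloid markers ran from 59.1 to 68.2 CPM (counts scaled to library size) in controls. It ran from 69.9 to 85.8 at Cd 24 ug/L and from 66.3 to 86.5 at PCB126 0.4 nM, and edgeR called 1 of the 6 in each, mpx, as higher. The summed level of the neuronal markers ran from 1840 to 1910 in controls and from 1670 to 1730 at Cd 24 ug/L. The liver markers ran from 8440 to 21700 in controls and from 8040 to 8380 at Cd 24 ug/L, where all 7 tested had negative log2 differences (median -0.56) and edgeR called 0 of them, with 5 at an unadjusted p below 0.05. The skeletal muscle markers ran from 19100 to 36300 in controls and from 16800 to 17500 at PCB126 0.8 nM. There all 8 tested had negative log2 differences (median -0.57), with 6 at an unadjusted p below 0.05. Of these, edgeR called 2 lower, mybpc1 (-0.58, adjusted p = 2.36e-05) and acta1b (-0.63, 0.0171), where 1.47% of all genes were called lower. Both were also called higher in the mean of the Cd groups than in that of the PCB126 groups. The liver range was also wide at Cd 2.4 ug/L (8480 to 18000), which like the controls holds a library of the pair, and was 7810 to 8510 at Cd 12 ug/L. These marker values were not computed without the pair, so its part in them is not known. The part of the marker shifts in the results on AP-1 genes was not tested. In whole larvae, fewer cells of a type and less RNA per cell cannot be told apart.

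On a scale that corrects for gene length, jun was the most abundant of the 8. The median over 28 libraries was 107 TPM (counts scaled to gene length and library size) for jun (ENSDARG00000043531, chromosome 20, 15552657 to 15554606, plus strand, GRCz11), the main activating Jun subunit. It was 51.9 TPM for junbb (ENSDARG00000104773, chromosome 3, 7654655 to 7656059, minus strand) and 27.9 TPM for junba (ENSDARG00000074378, chromosome 1, 51732979 to 51734535, minus strand), paired zebrafish copies of JunB. The Jun genes were therefore all above the Fos genes in median TPM. Among Fos genes, fosl2 (ENSDARG00000040623, chromosome 17, 41302660 to 41318547, plus strand) had a median of 14.3 TPM and fosab (ENSDARG00000031683, chromosome 20, 46552311 to 46554440, minus strand), a c-Fos gene, one of 13.9 TPM. The lowest was fosl1a (ENSDARG00000015355, chromosome 14, 30739476 to 30747686, minus strand), a Fra-1 gene, at 1.74 TPM and 17 to 112 counts per library, so its values carry the largest relative counting error. The median was 8.48 TPM for atf3 (ENSDARG00000007823, chromosome 20, 37794633 to 37800737, plus strand), a stress-induced leucine zipper factor, and 19.7 TPM for egr1 (ENSDARG00000037421, chromosome 14, 21332522 to 21336385, minus strand). All following levels are CPM scaled by TMM, which compare libraries and not genes.

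The members did not move as a block. Across the 7 groups, an edgeR quasi-likelihood test of any difference called 3 of the 8 members at an adjusted p below 0.05 (Benjamini-Hochberg over all genes tested), against 3.57% of all genes: jun (adjusted p = 0.00262), fosl1a (0.00351) and fosab (0.00992). The stress factor gene atf3 had an adjusted p of 0.0542 in that edgeR test. The others were junba (0.453), fosl2 (0.484), junbb (0.7) and egr1 (0.975). In the called genes the direction differed: jun and fosab were lower in PCB126 groups, and fosl1a was higher at the top doses of both chemicals.

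**Figure D1:**
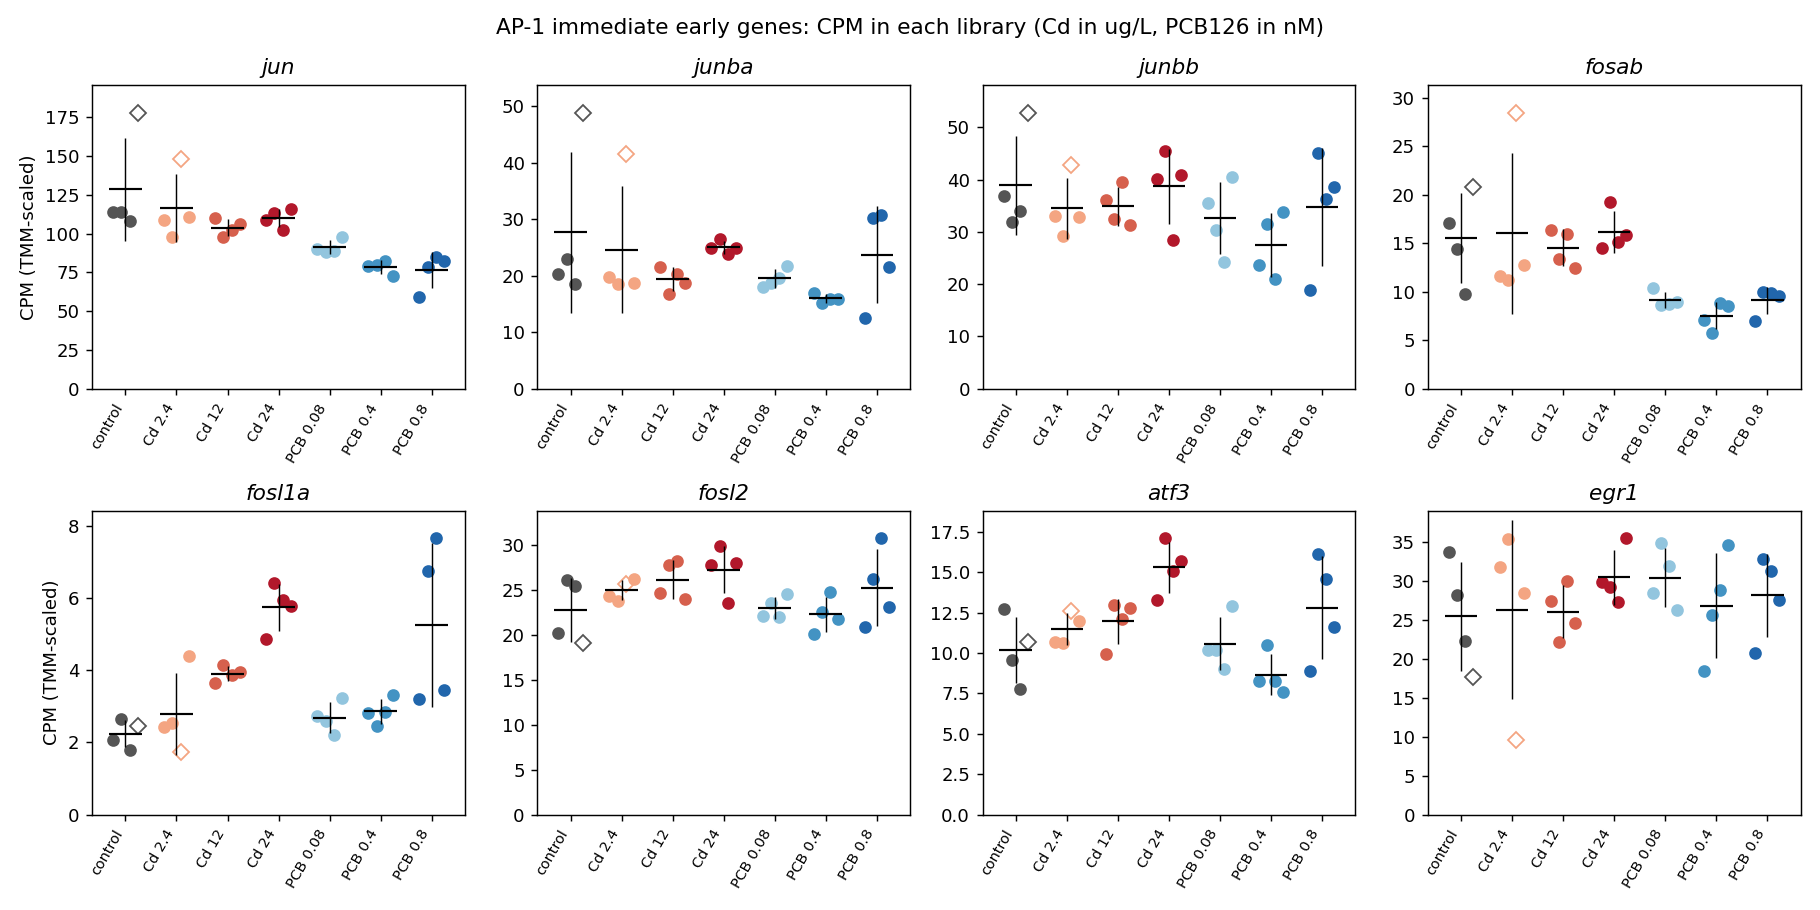
CPM (TMM-scaled, linear axes from 0) of each member in each of the 28 libraries, 4 per group; horizontal lines are group means, vertical lines are SD, and open diamonds mark control replicate 4 and Cd 2.4 ug/L replicate 3. In the jun panel every PCB126 library lies below every control, and in the fosl1a panel every library at Cd 24 ug/L and PCB126 0.8 nM lies above every control. The share of all genes set apart in this way was not computed.

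For jun, the 4 controls held 114, 114, 108 and 178 CPM. The PCB126 libraries held 90.3, 88.3, 88.7 and 97.6 CPM at 0.08 nM, 79, 80, 82.5 and 72.5 CPM at 0.4 nM, and 59.4, 78.5, 84.8 and 82.5 CPM at 0.8 nM. On this scale every PCB126 library was below every control, and the 0.08 nM and 0.4 nM groups did not overlap each other, while the 0.4 and 0.8 nM groups did. In TPM, control replicate 4 held 101 and PCB126 0.08 nM replicate 4 held 104, so the controls and that group overlapped. The share of all genes set apart from the controls in this way was not computed, here or for the genes below. The Cd libraries overlapped the controls at each dose, with 109, 97.8, 148 and 111 CPM at 2.4 ug/L, 110, 97.5, 102 and 106 CPM at 12 ug/L, and 109, 113, 102 and 116 CPM at 24 ug/L. Against control, jun fell by 0.71 on the log2 scale (SE 0.13, 1.64-fold lower, edgeR adjusted p = 0.00458) at 0.4 nM and by 0.75 (SE 0.13, 1.68-fold lower, adjusted p = 0.00113) at 0.8 nM. At 0.08 nM it was at -0.49 ± 0.13 and missed the threshold (edgeR adjusted p = 0.138). The highest control, replicate 4, is one of the pair that stood apart. Without the pair the log2 values were smaller, -0.29, -0.51 and -0.56 at the 3 rising doses, and edgeR called all of them (adjusted p = 0.0283, 0.000306 and 4.69e-05). The share of all genes called rose as well, from 0.386% to 7.83%, from 1.00% to 3.57% and from 3.49% to 8.73%.

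For fosab, the controls held 17.1, 14.4, 9.81 and 20.8 CPM. The PCB126 libraries held 10.4, 8.64, 8.73 and 8.98 CPM at 0.08 nM, 7.11, 5.75, 8.81 and 8.56 CPM at 0.4 nM, and 7.03, 10, 9.91 and 9.52 CPM at 0.8 nM. All were below 3 of the 4 controls, but control replicate 3 fell among the libraries at 0.08 and 0.8 nM, so only the 0.4 nM group was clear of all controls. The Cd libraries ran from 11.2 to 28.5 CPM at 2.4 ug/L, from 12.5 to 16.4 CPM at 12 ug/L, and from 14.5 to 19.3 CPM at 24 ug/L, each overlapping the controls. At 0.4 nM fosab fell by 1.03 on the log2 scale (SE 0.24, 2.04-fold lower, edgeR adjusted p = 0.0335). Leaving out any of 7 of the 8 libraries compared ended that call, with edgeR adjusted p from 0.0561 to 0.163; without control replicate 3 it was 0.0108. At 0.08 and 0.8 nM the log2 values were -0.76 ± 0.24 in both, with edgeR adjusted p = 0.284 and 0.0859. Without the pair that stood apart they were -0.58, -0.85 and -0.59 at the 3 rising doses, all called (edgeR adjusted p = 0.0314, 0.00253 and 0.0229), where 7.83%, 3.57% and 8.73% of all genes were called.

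For fosl1a, the controls held 2.08, 2.65, 1.79 and 2.46 CPM. The Cd libraries held 2.43, 2.54, 1.74 and 4.4 CPM at 2.4 ug/L, 3.64, 4.15, 3.87 and 3.96 CPM at 12 ug/L, and 4.86, 6.43, 5.94 and 5.77 CPM at 24 ug/L. The libraries at 12 and 24 ug/L were all above all controls, and those at 24 ug/L were all above those at 12 ug/L. The PCB126 libraries held 2.73, 2.6, 2.2 and 3.22 CPM at 0.08 nM, 2.82, 2.46, 2.85 and 3.31 CPM at 0.4 nM, and 3.2, 6.74, 7.66 and 3.45 CPM at 0.8 nM. At 0.8 nM all were above the controls, with replicates 2 and 3 far above replicates 1 and 4.
Against control, fosl1a rose by 1.36 ± 0.26 (log2 ± SE, 2.56-fold, edgeR adjusted p = 0.00681) at Cd 24 ug/L and by 1.23 ± 0.26 (2.35-fold, adjusted p = 0.00565) at PCB126 0.8 nM. At Cd 12 ug/L the log2 difference was 0.80 ± 0.26 (edgeR adjusted p = 0.441). When any library was left out, the calls at Cd 24 ug/L and PCB126 0.8 nM held, with edgeR adjusted p up to 0.0397 and 0.0442. Without the pair that stood apart the log2 differences there were 1.40 ± 0.26 and 1.28 ± 0.26. Both were called (edgeR adjusted p = 0.00162 and 0.00199), where 5.08% and 8.73% of all genes were called. The direct comparison of Cd 24 ug/L with PCB126 0.8 nM gave 0.12 ± 0.25 (edgeR adjusted p = 1).

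For atf3, the controls held 12.7, 9.59, 7.78 and 10.7 CPM, and the libraries at Cd 24 ug/L held 13.3, 17.1, 15.1 and 15.7 CPM. The groups did not overlap. The log2 difference of 0.59 ± 0.17 missed the threshold in edgeR (adjusted p = 0.105) and passed it without the pair that stood apart (0.61 ± 0.17, edgeR adjusted p = 0.0364). The share of all genes called rose there from 0.922% to 5.08%. At PCB126 0.8 nM atf3 ran from 8.9 to 16.1 CPM, and all other groups overlapped the controls too. Its group means ranged from 8.64 ± 1.25 CPM (SD, n = 4) at PCB126 0.4 nM to 15.3 ± 1.57 CPM (SD, n = 4) at Cd 24 ug/L.

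The copies of JunB, and fosl2 and egr1, were called in none of the 13 comparisons by edgeR with all libraries. Controls held 20.4, 23, 18.5 and 48.9 CPM of junba, and libraries at PCB126 0.4 nM held 17, 15.2, 15.9 and 15.9 CPM, all below the controls (log2 -0.78 ± 0.28, edgeR adjusted p = 0.256). Without the pair of libraries that stood apart this difference was -0.36 ± 0.17 (edgeR adjusted p = 0.299). The other 5 groups overlapped the controls. Cd 2.4 ug/L replicate 3 (41.5 CPM) and control replicate 4 were the highest libraries of their groups for junba, and the fitted sign changed without them: it went from -0.14 to 0.29 at Cd 24 ug/L and from -0.21 to 0.21 at PCB126 0.8 nM. For junbb, group means lay between 27.4 ± 6.15 CPM (SD, n = 4) at PCB126 0.4 nM and 38.9 ± 9.52 CPM (SD, n = 4) in controls, and every group overlapped the controls.

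The other Fos gene, fosl2, which encodes Fra-2, ran from 19.1 to 26.1 CPM in controls and from 23.5 to 29.8 CPM at Cd 24 ug/L (log2 0.26 ± 0.12, edgeR adjusted p = 0.354). The zinc finger gene egr1 ran from 17.7 to 33.8 CPM in controls, and its lowest value of all, 9.61 CPM, was in Cd 2.4 ug/L replicate 3. Against control it was at 0.26 ± 0.26 (95% interval -0.28 to 0.79) at Cd 24 ug/L and at 0.14 ± 0.26 (-0.40 to 0.68) at PCB126 0.8 nM on the log2 scale. These intervals hold both a fall and a rise. Without the pair that stood apart, egr1 was at 0.12 ± 0.17 at Cd 24 ug/L and at 0.01 ± 0.17 at PCB126 0.8 nM. In that fit fosl2 was at 0.19 ± 0.11 at Cd 24 ug/L.

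Ordered by group mean, most neighbouring groups overlapped. The exceptions were fosab between Cd 12 ug/L and PCB126 0.08 nM, fosl1a between Cd 12 ug/L and PCB126 0.4 nM, and jun between PCB126 0.08 nM and 0.4 nM. The share of all genes with such gaps was not computed. Nor was the share of all genes for which every library of a group lies above, or below, every control. For fosab, group means were 14.6 to 16.2 CPM in the Cd and control groups and 7.56 to 9.18 CPM in the PCB126 groups. Control replicate 3, at 9.81 CPM of fosab, nevertheless fell among the libraries at PCB126 0.08 and 0.8 nM. For jun, group means were 129 ± 32.7 CPM (SD, n = 4) in controls and 104 ± 5.41 CPM at Cd 12 ug/L. At PCB126 0.08 and 0.8 nM they were 91.2 ± 4.34 and 76.3 ± 11.6 CPM. The control mean includes replicate 4 (178 CPM), one of the pair that stood apart, and the other 3 controls had a mean of 112 CPM. At Cd 12 ug/L the log2 difference of jun from control was -0.31 ± 0.13 (edgeR adjusted p = 0.535). Without the pair it was -0.11 ± 0.08 (edgeR adjusted p = 0.725).

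Each exposed group was then compared with control for all 8 members; the 6 comparisons share the same 4 controls. At Cd 2.4 ug/L edgeR called 0 members, where 0.0394% of all genes were called, and 0 members had an unadjusted p below 0.05 (DESeq2 and limma also called 0). At Cd 12 ug/L edgeR called 0 against 0.173% of genes, with 2 members at an unadjusted p below 0.05, fosl1a and jun (DESeq2 and limma called 0). At Cd 24 ug/L fosl1a was the single call of 8, against 0.922% of genes (0.744% called higher). At PCB126 0.08 nM edgeR called 0 against 0.386% of genes, with jun and fosab below 0.05 unadjusted (DESeq2 called 1, jun, and limma 0).

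At PCB126 0.4 nM edgeR called 2 of 8 members lower and 0 higher, jun and fosab, against 1.00% of genes called in either direction and 0.366% called lower. At 0.8 nM it called fosl1a higher and jun lower, against 3.49% of genes (2.02% higher and 1.47% lower). The median log2 difference of the 8 members was -0.37 at 0.4 nM and -0.01 at 0.8 nM, where that of all genes was -0.02 and -0.01, and it was 0.16 at Cd 24 ug/L against -0.02 for all genes. When the model held only the 2 groups compared, no member was called at Cd 24 ug/L, PCB126 0.4 nM or PCB126 0.8 nM. The number of all genes called fell there too, from 234 to 19, from 255 to 37 and from 887 to 111. The cause was not tested. In that model fosl1a had an edgeR adjusted p of 0.0985 at Cd 24 ug/L and 0.268 at PCB126 0.8 nM, jun had 0.353 and 0.209 at 0.4 and 0.8 nM, and fosab had 0.392 at 0.4 nM.

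**Figure D2:**
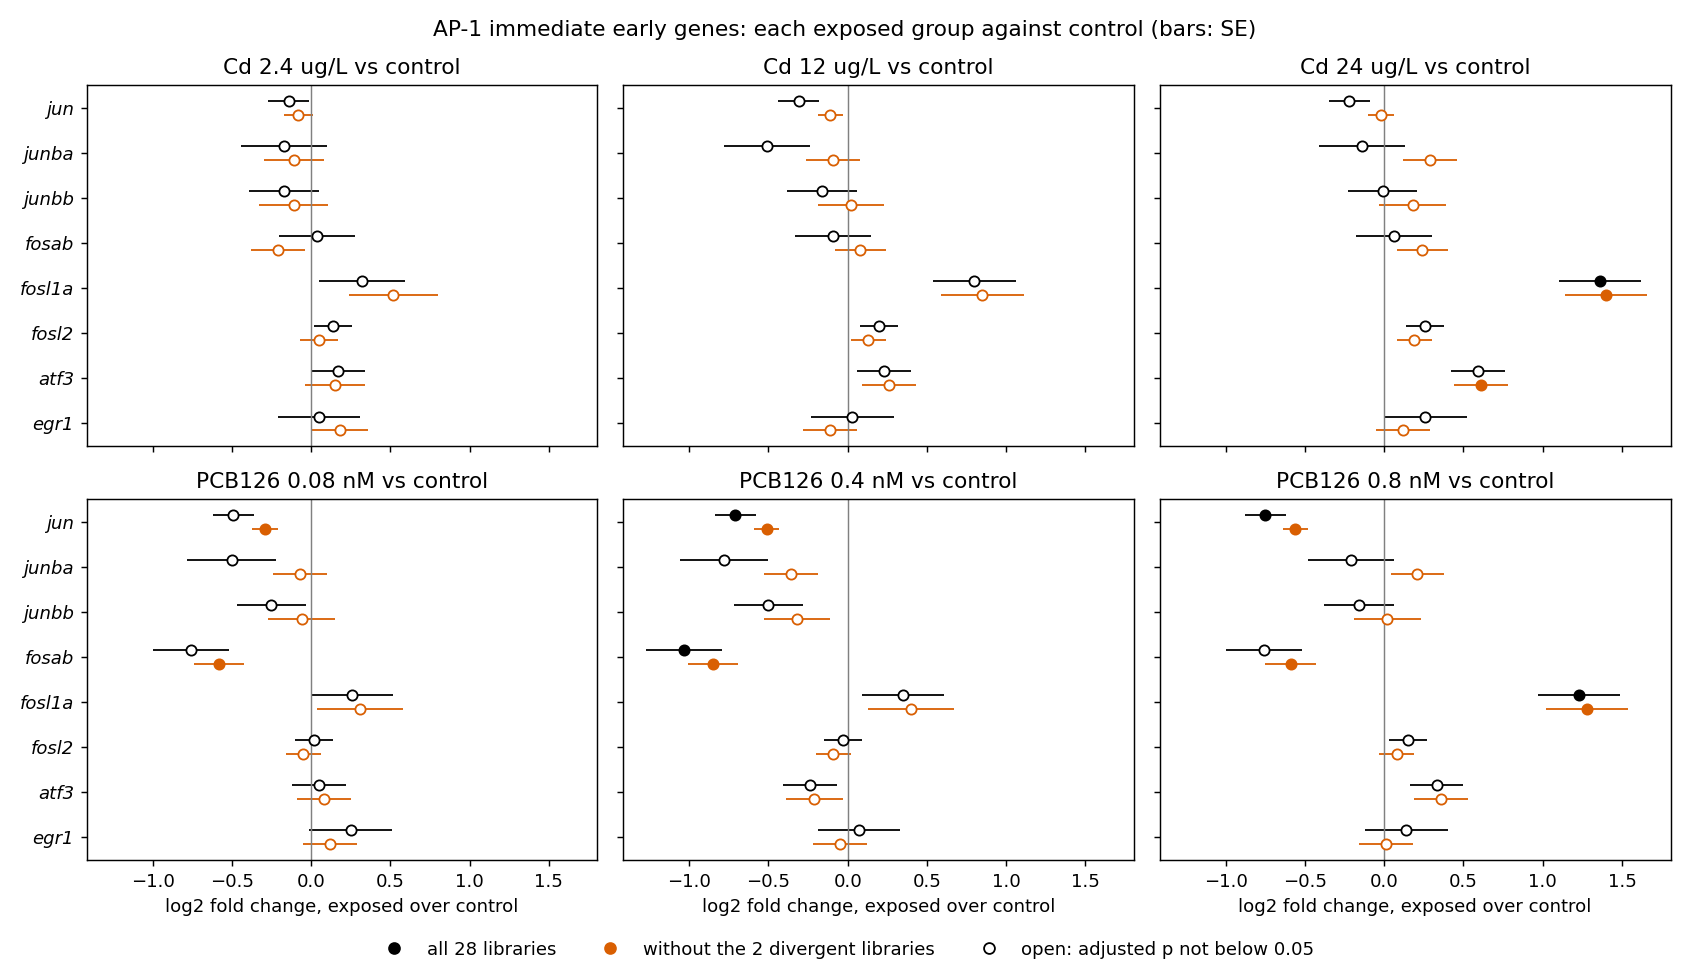
Log2 fold change of each member (horizontal axis, bars are SE) in each exposed group against control, fitted on all 28 libraries (black) and without the 2 libraries that stood apart (orange); filled points have an adjusted p below 0.05 in edgeR. With all libraries the filled points are fosl1a at Cd 24 ug/L, jun and fosab at PCB126 0.4 nM, and fosl1a and jun at PCB126 0.8 nM.

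The mean of the 3 Cd groups was compared with the mean of the 3 PCB126 groups, 12 libraries on each side, which uses no control. Both fosab (0.85 ± 0.14, 1.81-fold, edgeR adjusted p = 0.00041) and jun (0.43 ± 0.08, 1.35-fold, adjusted p = 0.00122) were higher in Cd groups on the log2 scale. They were 2 of 8 members called, against 2.43% of all genes (1.19% called higher). Of the 8, 7 had positive differences, with a median of 0.22 against 0.01 for all genes, and egr1 was at -0.04 ± 0.15. The difference held when any library was left out (highest edgeR adjusted p 0.00134 for fosab and 0.00362 for jun) and without the pair that stood apart (0.71 ± 0.09 and 0.38 ± 0.05, where 8.02% of all genes were called). At the top doses, jun was 0.53 ± 0.13 higher at Cd 24 ug/L than at PCB126 0.8 nM (edgeR adjusted p = 0.0365), the single call of 8 against 1.74% of genes (0.736% called higher). Leaving out any of 7 of the 8 libraries compared ended it (adjusted p 0.0554 to 0.205 in edgeR), the exception being PCB126 0.8 nM replicate 3. In the same comparison fosab was 0.83 ± 0.24 higher (edgeR adjusted p = 0.103).

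Dose was examined within each chemical. Between Cd 24 and 2.4 ug/L edgeR called 0 members, where 0.520% of genes were called and 2 members had an unadjusted p below 0.05 (DESeq2 and limma called 1 each, fosl1a). The fosl1a difference was 1.04 ± 0.26 (log2, edgeR adjusted p = 0.058). It became 1.34 and was called without Cd 2.4 ug/L replicate 4 (edgeR adjusted p = 0.0146). Every other single omission left it uncalled, the smallest difference being 0.88 without Cd 2.4 ug/L replicate 3 (edgeR adjusted p = 0.197). Without the pair that stood apart it was 0.88 ± 0.25 and not called (edgeR adjusted p = 0.0511). Between PCB126 0.8 and 0.08 nM edgeR called 0 of 8 against 1.02% of genes, with 1 at an unadjusted p below 0.05 (DESeq2 called 1, fosl1a, and limma 0). There fosl1a differed by 0.97 ± 0.26 (edgeR adjusted p = 0.0725), and it was called without PCB126 0.8 nM replicate 1 (adjusted p = 0.0241) or 4 (0.0346).

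Slopes over dose, with the controls at dose 0, called 1 member for each chemical, fosl1a. The Cd slope was 0.053 ± 0.00846 log2 units per ug/L (edgeR adjusted p = 0.0139, against 0.344% of genes called, 0.264% with a rising slope), and the call ended without Cd 24 ug/L replicate 2 (adjusted p = 0.0646) or 3 (0.0513). The PCB126 slope was 1.42 ± 0.293 log2 units per nM (edgeR adjusted p = 0.0135, against 2.27% of genes called, 1.42% with a rising slope), and the call ended without PCB126 0.8 nM replicate 2 (adjusted p = 0.0756) or 3 (0.0821), the 2 high libraries. The slope of jun over PCB126 dose was -0.771 ± 0.201 per nM (edgeR adjusted p = 0.0532). It was called without control replicate 4 (edgeR adjusted p = 0.0091), where 6.28% of all genes were called. Every other single omission left it uncalled (edgeR adjusted p up to 0.16).

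Libraries of a group often differed in the same direction for several members. PCB126 0.8 nM replicate 1 was the lowest of its group for all 8 members, and replicates 2 and 3 were the highest for 4 each. Replicate 1 also had the fewest counts of all libraries (11893345, against 13944282 to 14248439 in the rest of its group), and the part of depth in its low values was not tested. Cd 24 ug/L replicate 2 was highest in its group for 6 members and PCB126 0.08 nM replicate 4 for 6. Correlations of log2 CPM between members over the 28 libraries, which share sequencing depth, scaling and the pair that stood apart, include the differences between groups. For jun and fosab Pearson's r was 0.85 (0.81 over the 26 other libraries), and after the group means were removed it was 0.73 (0.56 over 26). For fosl1a and atf3 it was 0.70 (0.77 over 26), and 0.51 within groups (0.59 over 26). The highest within-group value was that of jun and junba, at 0.92 (0.84 over 26), where r with group differences included was 0.71 (0.46 over 26). For jun and egr1 it was -0.33 over 28 and 0.25 over 26, and within groups -0.46 and -0.02. The group means removed were those with the pair included. The within-group values over 26 libraries are therefore not free of the pair.

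**Figure D3:**
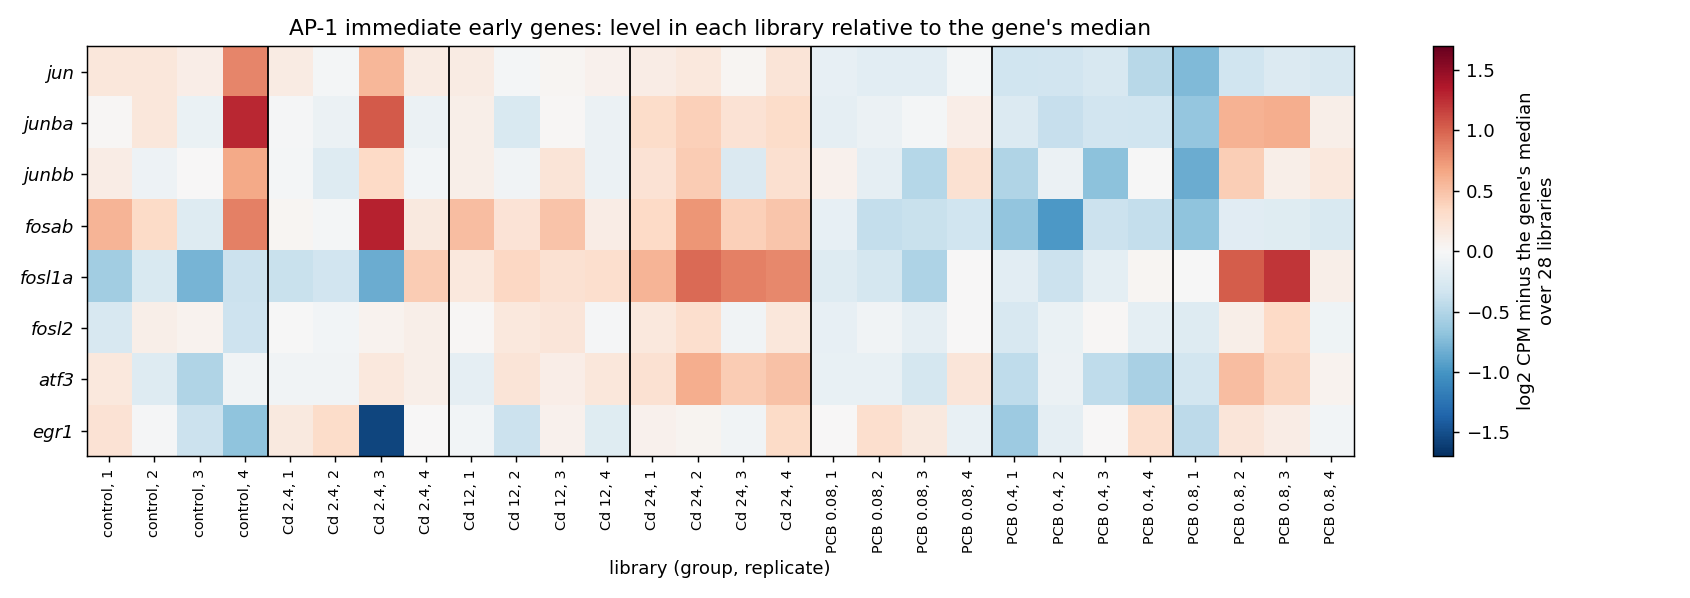
Level of each member (rows) in each library (columns, grouped by exposure, replicates 1 to 4) as log2 CPM minus the gene's median over 28 libraries; red is above the median and blue below. PCB126 0.8 nM replicate 1 has the lowest value of its group in all 8 rows, and control replicate 4 and Cd 2.4 ug/L replicate 3 have the highest values of the junba row.

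With all 28 libraries, few of the partner and regulator genes listed for AP-1 were called, as was so for all genes. More of them were called without the pair that stood apart. Of 19 dimer partners (other Jun, Fos, Atf, Batf and Maf genes), 15 had a symbol in the table and 12 were tested. Of these, edgeR called 0 in 12 of the 13 comparisons, and 0 to 4 had an unadjusted p below 0.05 in a comparison. The share of all genes called ran from 0.0394% to 3.57% over the 13 comparisons, so 0 calls in so short a list is near that share. The call was jund, a JunD gene, which was 0.28 ± 0.07 higher in the mean of the Cd groups than in the mean of the PCB126 groups (edgeR adjusted p = 0.0168, against 2.43% of all genes called). DESeq2 called 1 partner in that comparison and 1 in the test of any difference, and limma called 0 throughout. Without the pair, edgeR called partners in 7 of the 13 comparisons: 1 lower at PCB126 0.08 nM and 1 lower at 0.4 nM against control, 2 higher at 0.8 than at 0.08 nM, 1 higher at Cd 24 ug/L than at PCB126 0.8 nM, 3 higher in the Cd than in the PCB126 mean, 1 with a rising Cd slope, and 5 in the test of any difference. Leaving out the pair also raised the calls over all genes, to 7.83%, 3.57%, 6.57%, 8.02%, 5.29% and 18.9% of genes in these comparisons, and from 260 to 2811 genes between PCB126 0.8 and 0.08 nM. Of 31 MAP kinases, serum response and CREB factors, 27 were present by symbol and 26 were tested. Serum response factor itself (srf) was not present under that symbol, so it was not tested. Among the 26, edgeR called 0 in all 13 comparisons, with 1 to 6 below 0.05 unadjusted. This too is near the share of all genes called, 0.0394% to 3.57%. DESeq2 called up to 2 in a comparison and limma 0, and the shares of all genes these tools called are not given here. Without the pair edgeR called members of this list in 7 comparisons too: 3 lower at PCB126 0.08 nM, 2 higher and 1 lower at PCB126 0.8 nM (8.73% of all genes) and 1 higher at Cd 24 ug/L (5.08%) against control. It also called 1 higher and 1 lower for PCB126 0.8 against 0.08 nM, 1 lower in the Cd than in the PCB126 mean, 1 with a rising Cd slope, and 5 in the test of any difference.

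Other immediate early genes moved in both directions. Of 57 listed, 49 were tested. At Cd 24 ug/L 2 rose and 1 fell, led by nr4a3, an orphan nuclear receptor gene, at 1.75 ± 0.21 (edgeR adjusted p = 1.74e-05). The others were klf2b, a flow-responsive zinc finger gene (0.44), and mycb, a Myc gene (-0.95). At PCB126 0.08 nM 1 rose and 3 fell, at 0.4 nM 2 rose and 6 fell, and at 0.8 nM 4 rose and 8 fell. At 0.8 nM klf2b rose by 1.28 ± 0.10 (edgeR adjusted p = 8.2e-09) and ctgfb, a matrix growth factor gene, by 1.15. Of the genes that fell there, egr4, a relative of egr1, was at -1.24 ± 0.22 and nr4a1 at -1.05. At 0.4 nM the largest fall was rgs2, a regulator of G protein signalling, at -2.06 ± 0.37 (edgeR adjusted p = 0.00243). The median of the 49 was -0.18 at 0.8 nM, where that of all genes was -0.01. Without the pair of libraries that stood apart, the counts higher and lower were 5 and 1 at Cd 24 ug/L, 1 and 8 at PCB126 0.08 nM, 2 and 10 at 0.4 nM, and 5 and 11 at 0.8 nM. The share of all genes called rose as well, from 0.922% to 5.08%, from 0.386% to 7.83%, from 1.00% to 3.57% and from 3.49% to 8.73% in these 4 comparisons.

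In the mean of the Cd groups against the mean of the PCB126 groups, 15 of the 49 were higher and 2 lower (edgeR), with a median of 0.24 against 0.01 for all genes. The largest were rgs2 (1.11 ± 0.20), nr4a3 (1.09 ± 0.12), btg2, an antiproliferative gene (0.94 ± 0.09, edgeR adjusted p = 1.5e-07), and nr4a1 (0.89 ± 0.08). The 2 lower genes were klf2b (-0.74) and ctgfb (-0.58). Without the pair, 19 were higher and 3 lower, where the share of all genes called went from 2.43% to 8.02%.

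**Figure D4:**
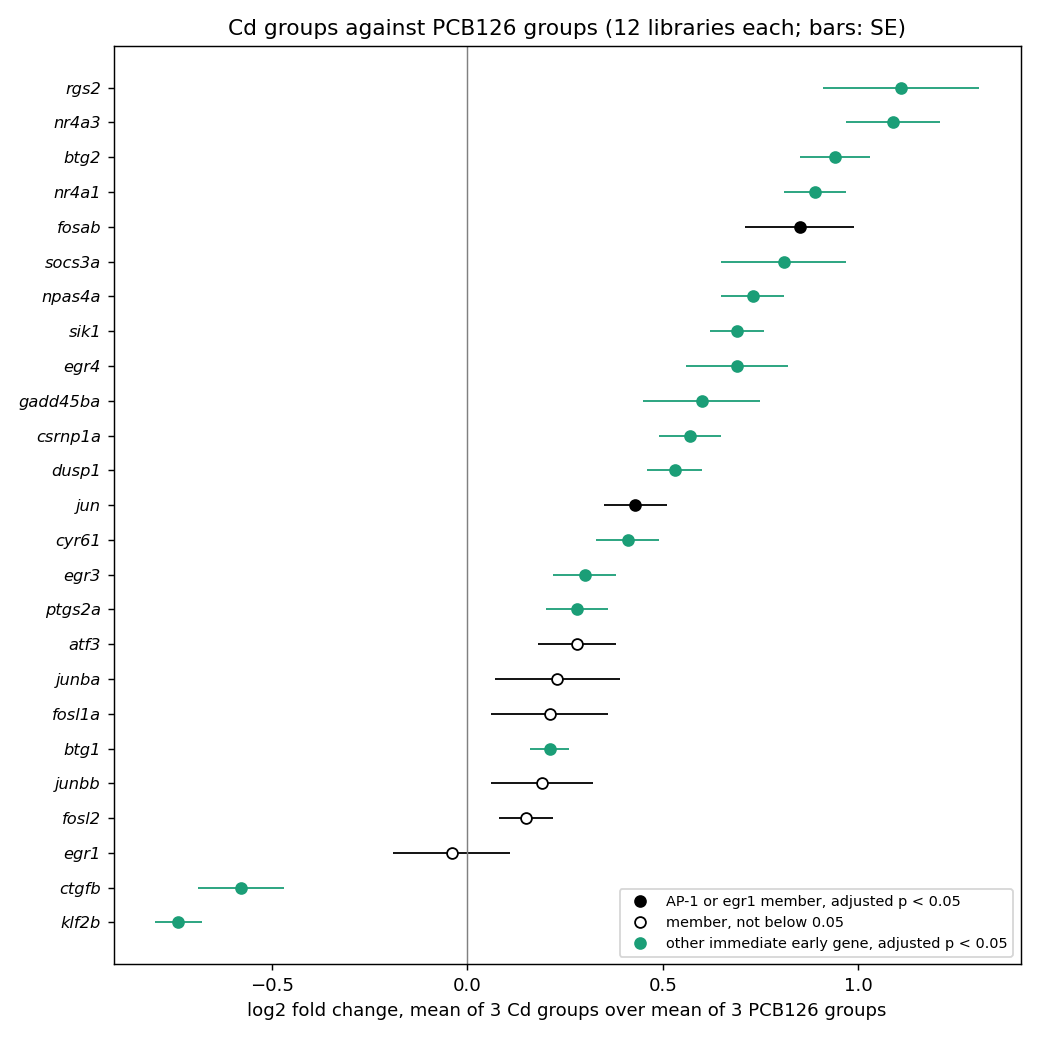
Log2 fold change of the mean of 3 Cd groups over the mean of 3 PCB126 groups (horizontal axis, bars are SE) for the 8 members (black, filled where the adjusted p is below 0.05) and for the called genes among the 49 other immediate early genes (green). The called members are jun and fosab, and 15 of the 17 green points lie to the right of 0.

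With all libraries, the genes listed as AP-1 targets that edgeR called against control were called in PCB126 groups. Of 25 listed symbols, 17 rows of the table were tested. In the 3 Cd comparisons with control (rising doses) and at PCB126 0.08 nM edgeR called 0, with 0 to 2 below 0.05 unadjusted. Of all genes, 0.0394%, 0.173%, 0.922% and 0.386% were called there, so 0 of 17 is near that share. DESeq2 called 0 in these comparisons, and limma called 1 at Cd 24 ug/L and 0 in the others. At PCB126 0.8 nM 4 rows rose, including both rows of the gene mmp13a, and 0 fell, where 2.02% of all genes were called higher and 1.47% lower. The gelatinase gene mmp9 held 7.55, 10.6, 7.72 and 13.6 CPM in controls and 16.6, 31.8, 58.8 and 20.9 CPM at 0.8 nM, without overlap (log2 1.71 ± 0.30, edgeR adjusted p = 0.000832). Its level was also above all controls at Cd 12 ug/L (14.9, 14.5, 30 and 16.5 CPM) and Cd 24 ug/L (19.9, 20.7, 14.2 and 17.2 CPM), though not called there. The tissue inhibitor of metalloproteinases timp2b held 10.3, 11.9, 9.99 and 7.85 CPM in controls and 12.8, 29.6, 58.9 and 16.2 CPM at 0.8 nM (log2 1.55 ± 0.31, edgeR adjusted p = 0.00341). As for fosl1a, replicates 2 and 3 were the high libraries for both genes.

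The collagenase gene mmp13a is in the table under 2 identifiers, ENSDARG00000012395 and ENSDARG00000114451, and how reads were divided between them is uncertain. Both rose at 0.8 nM (2.19 ± 0.30 and 1.95 ± 0.35 on the log2 scale, edgeR adjusted p = 3.42e-05 and 0.00113) and at 0.4 nM (1.45 and 1.47, adjusted p = 0.00996 and 0.0335). Of the 17 rows, these 2 of the same gene were the ones called at 0.4 nM, where 1.00% of all genes were called. Without the pair, edgeR called 5 higher at 0.8 nM (8.73% of all genes called), 2 higher at 0.4 nM (3.57%) and 1 higher at 0.08 nM (7.83%). At Cd 24 ug/L it then called 1 higher and 1 lower (5.08%).

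The genes whose level was most like that of each member, by Pearson correlation of log2 CPM over 28 libraries among 16524 genes, differed from member to member. In brackets, r over all 28 is followed by r over the 26 libraries without the pair that stood apart. For fosab the genes were btg2 (0.91, 0.89), cebpd (0.89, 0.85) and ddit4 (0.89, 0.84). For jun they were krt94 (0.93, 0.88), CABZ01076669.1 (0.92, 0.88) and ftr82 (0.92, 0.86). For fosl1a they were slc16a9b (0.86, 0.92), pkhd1l1 (0.86, 0.85) and xirp1 (0.82, 0.80), and for atf3 they were si:dkey-85k7.7 (0.80, 0.80), tcap (0.80, 0.82) and arg2 (0.78, 0.78). For junba they were cldnb (0.91, 0.82), cebpb (0.89, 0.82) and hbegfa (0.87, 0.72), and for junbb they were junba (0.75, 0.70), cebpb (0.69, 0.60) and tmem234 (0.69, 0.65). For fosl2 they were si:rp71-46j2.7 (0.70, 0.67), nocta (0.70, 0.71) and pfkfb3 (0.69, 0.63). Those of egr1 were glis1b (0.87, 0.65), wasf1 (0.85, 0.51) and wdr20b (0.85, 0.52).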

How the data were processed

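Whole-larva RNA was read from poly-T-selected libraries primed with random hexamers, per the labels' protocols; these describe second-strand synthesis for stranded and for unstranded kits alike, so it is not known which was used. The authors deposited raw counts per gene; the submitters' processing notes name HISAT2 2.0.5, featureCounts 1.5.0-p3 and GRCz11, and the annotation release is not given in the sources used here. The authors also deposited TPM for 27475 genes (counts divided by gene length, then scaled per library) and, per the file headers, gene length in bases. The log2 values were computed here from the deposited tables.

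The count model was edgeR's quasi-likelihood fit (version 4.0.16, R 4.3.3; filterByExpr, TMM, two-sided glmQLFTest) in a single model of all 28 libraries with 21 residual degrees of freedom, and adjusted over 25393 genes by Benjamini-Hochberg. Dose slopes used control and the 3 groups of a chemical (24992 and 24840 genes). Errors are SD over 4 libraries for CPM and SE for log2 values; log2 CPM has a prior count of 2. Scripts were tested on simulated data. Reads have no molecular identifiers. Intervals come from the model, which estimates the spread between libraries, and cover no error outside it. DESeq2 1.42.0 and limma 3.58.1 on log2(TPM + 1) were alternatives, as were DESeq2 size factors, no filter, a mean of 10 counts, CPM without TMM, only the groups compared, the replicate number as a block, dose ranks, and leaving out libraries. The members and gene lists were chosen with earlier results of these data known, and the pair of libraries that stood apart was known from an earlier analysis. All 8 members were described whatever their values; of each gene list, up to 4 called genes per comparison, the largest changes first, and the 3 genes most correlated with each member, were eligible to be named. Unannotated loci held 7.71% of counts.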

Additional observations from a re-analysis of the deposited data

Results flagged for a closer look

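In 5 of the 56 groups of 4 libraries (8 genes in 7 groups), the most distant library stood apart from the other 3 by Dixon's 95% criterion. Chance flags about 1 in 20 such groups. For jun, control replicate 4 held 178 CPM (its gap to the next library was 0.915 of the group's range). For junba, control replicate 4 held 48.9 CPM (0.852) and Cd 2.4 ug/L replicate 3 held 41.5 CPM (0.951). For fosab, Cd 2.4 ug/L replicate 3 held 28.5 CPM (0.911), and PCB126 0.8 nM replicate 1 held 7.03 CPM (0.834). The first 4 are in the 2 libraries with low TMM factors. In these libraries the distance depended on scaling: control replicate 4 was 1.58 times the mean of the other 3 controls for jun with TMM and 0.961 times without it, and 2.37 and 1.44 times for junba. Cd 2.4 ug/L replicate 3 was 2.18 times the other 3 for junba with TMM and 1.47 times without, and 2.40 and 1.62 times for fosab. The part of scaling and of these libraries' composition in the values was not tested further.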

How the results depend on the processing

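No result on a single member changed direction while called under any alternative, and the number of called members (of 8) changed as follows; without the 2 libraries that stood apart, the share of all genes called rose too, as given in brackets. At Cd 24 ug/L against control it was 1, and it was 2 with DESeq2, 2 without the pair (5.08%) and 0 with only the groups compared (19 of all genes called, from 234). At PCB126 0.08 nM against control it was 0, and 1 with DESeq2 and 2 without the pair (7.83%, from 0.386%). At PCB126 0.8 nM it was 2, and 3 with DESeq2 and 3 without the pair (8.73%), fosab being the added gene in both; in the test of any difference it was 3, and 4 with DESeq2 and 4 without the pair (18.9%), atf3 being added. With only the groups compared it was 0 at PCB126 0.4 nM (37 of all genes called, from 255) and 0 at PCB126 0.8 nM (111, from 887), from 2 members in both. Between Cd 24 and 2.4 ug/L it was 0, and 1 with DESeq2 and 1 with limma on log2(TPM + 1). Between PCB126 0.8 and 0.08 nM it was 0, and 1 with DESeq2 and 2 without the pair (2811 genes, from 260). Between Cd 24 ug/L and PCB126 0.8 nM it was 1, and 0 with no filter (jun, adjusted p = 0.0511 in edgeR), and 2 with DESeq2, limma, only the groups compared, or without the pair (6.57%). The Cd dose slope called 1, and 2 with DESeq2 or without the pair (5.29%); the PCB126 slope called 1, and 2 with DESeq2, without the pair (6.28%) or on dose ranks. Models with only the groups compared thus called fewer members in some comparisons and more in another. The cause of these changes was not tested.

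When single libraries were left out, the number ranged from 1 to 2 at PCB126 0.4 nM, from 2 to 3 at 0.8 nM, and from 0 to 1 for Cd 24 against 2.4 ug/L, PCB126 0.8 against 0.08 nM, Cd 24 ug/L against PCB126 0.8 nM and the Cd slope. It ranged from 0 to 2 for the PCB126 slope and from 3 to 4 for the test of any difference, and was constant in the other 5 comparisons.

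With the replicate number as a block, the number of called members was 0 at Cd 2.4 ug/L, 0 at Cd 12 ug/L, 1 at Cd 24 ug/L, 0 at PCB126 0.08 nM, and 2 at PCB126 0.4 and 0.8 nM, the same as without it, and so it was in the other 7 comparisons. Over 84 same-numbered pairs the correlation of deviations had a median of -0.01, and 15 exceeded 0.1. The extremes, -0.65 and 0.59, were between controls and Cd 2.4 ug/L, the groups that hold the pair that stood apart. This check therefore cannot decide whether the numbers pair the samples.

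Among all genes the number called at PCB126 0.8 nM was 887, with a range of 111 (only the groups compared) to 2237 (without the pair), and at Cd 24 ug/L 234, with a range of 19 to 1300. On log2(TPM + 1) the median of all genes moved to 0.16 at Cd 24 ug/L and 0.18 at PCB126 0.8 nM, so values there are relative to that shift. Depth limits fosl1a most.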
